A study of Homo sapiens with 2 samples.

Results

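MYC and the gene-poor stretch around it at 8q24 were examined through every accessible region that either deposited list places on chromosome 8 between positions 126500000 and 129500000 of hg38. The window held 148 of the 98152 regions of untreated cells and 179 of the 122399 regions of lactate-treated cells. Merging the regions that overlapped gave 192 regions, of 130506 on chromosomes 1 to 22 and X. The borders of the window fell between listed regions and cut none: the first region inside the lower border had 59 untreated and 79 lactate tags and the last region outside it 18 and 27, while at the upper border the values were 15 and 17 inside and 12 and 16 outside.

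The data are ATAC-seq, a method that maps accessible DNA by where a transposase can insert sequencing adapters, from CAL27, an established line of human oral squamous cell carcinoma. One group was left untreated and the other received 10 mM lactate for 24 h, with 1 library in each, and the nuclei of both came from cells thawed out of frozen vials. The untreated library had 18248413 tags and the lactate library 15401276. With 1 library per group there is no replicate check and no test, the values compare 2 libraries rather than 2 conditions, and the exact 95% intervals given in brackets cover counting error only.

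MYC encodes a transcription factor of the basic helix-loop-helix leucine zipper family that binds DNA as a dimer with MAX and drives genes of ribosome production, nucleotide synthesis and the cell cycle. It is flanked on both sides by long stretches with few coding genes, which hold enhancers used by different tissues and several long noncoding RNA genes, among them PVT1 next to MYC and CCAT1 and CASC8 on its centromeric side. This stretch is frequently gained in carcinomas, and enhancers far from MYC within it are known to contact its promoter.

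For each region the measure was the summit pileup, the number of 200 bp tags that cover the highest point of the region, per 1000000 tags of the library, given below as RPM. The ratio is the lactate value over the untreated one. Among all shared regions that are not narrow the median ratio was 1.66 with this scaling, a shift of 0.73 on the log2 scale, and 0.941 or −0.09 on the log2 scale when the libraries were scaled by the tags in shared summits. A relative ratio was therefore used: the ratio divided by the median ratio of shared regions of like summit tags, in 20 bins, so that 1 stands for the median region of that height under either scaling. In these bulk libraries, fewer cells with an open region and less signal per cell cannot be told apart. A narrow region is a single-summit region of 218 to 226 bp, a width piled up at 219 bp in both lists; such regions made up 25 of the 192, or 13%, against 13.2% over the genome. Of the 16 regions with identical start and end in both lists, 15 were narrow. What makes narrow regions was not tested, and they are named wherever they enter.

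As a check of the cell type, markers were looked up. Of the markers of squamous epithelium, 11 of 13 had such DNA listed at an end of the gene in each library, KRT14 and TP63 being the exceptions. None of 5 endothelial markers had one, against 3 of 7 leukocyte markers in each list and, of 6 fibroblast markers, 4 among untreated and 3 among lactate regions. For comparison, 9576 of 15812 coding genes had a promoter region in both lists, a share that leaves out 3′ ends. The marker counts therefore do not identify the cell type by themselves. A region at a gene end shows that DNA was listed as accessible, not that the gene was expressed.

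The window was poor in genes but not in accessible regions. RefSeq places 3 protein-coding genes in it, LRATD2, POU5F1B and MYC, where the genome's average would give 19.3, beside 24 long noncoding RNA genes, 6 microRNA genes and 8 pseudogenes. The untreated list held 49.3 regions per Mb in the window and 31.7 per Mb over the whole genome, and the lactate list 59.7 and 39.5. When the genome was cut into tiles of 3 Mb, the 151 tiles with 1 to 5 protein-coding genes, a range chosen after the data had been seen, had a median of 54 untreated regions (quartiles 42.5 and 66.5) and 66 lactate regions (51.5 and 81.5). The MYC window thus held more regions than the upper quartile of gene-poor tiles in both libraries, and also more than the median of all 997 tiles, which was 93 untreated and 116 lactate regions. The desert of the name describes coding genes and not the number of listed regions in CAL27. Copy number of this stretch in these cells was not examined.

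The lists overlapped in the window as they did elsewhere. A lactate region overlapped 133 of the 148 untreated regions, or 89.9% (83.8 to 94.2), where the genome gave 90.1%. An untreated region overlapped 133 of the 179 lactate regions, or 74.3% (67.2 to 80.5), where the genome gave 72.3%. The 46 regions of the lactate list alone were 25.7% of its window regions against a background of 27.7%, and 15 regions were in the untreated list alone against a background of 9.95%. The excess of lactate over untreated regions, 1.21 times, was likewise close to the 1.25 times of the genome. Regions of 1 list alone were low and short: their median summit held 10 tags in either case, and their median width was 233.5 bp in the lactate list and 218 bp in the untreated list, against 477 bp for shared regions.

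The 131 shared regions had a median of 25 untreated and 33 lactate tags at the summit, or 1.37 and 2.14 RPM. Their median ratio was 1.59 with total tags and turned to 0.9 with summit-tag scaling, beside 1.65 over the genome with total tags. Among the 115 that were not narrow the median relative ratio was 0.976, where 1 is the value over all such regions. A relative ratio of at least 1.5 was found in 18 of the 131 shared regions, 13.7% against a background of 10.7%, and 2 of these were narrow. A relative ratio of at most 0.667, the inverse of 1.5, was found in 26, or 19.8% against a background of 14.4%, of which 8 were narrow. Both shares lay near their backgrounds, and no difference of the window from the genome is read from them. The window had 16 narrow shared regions, of which these 8 were low and 2 high. Over the genome, 3573 of 13437 narrow shared regions were low and 564 high by the same limits. The narrow regions of the window are few, and nothing is read from their counts. The map of the window shows where the high summits stood.

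**Figure D1:**
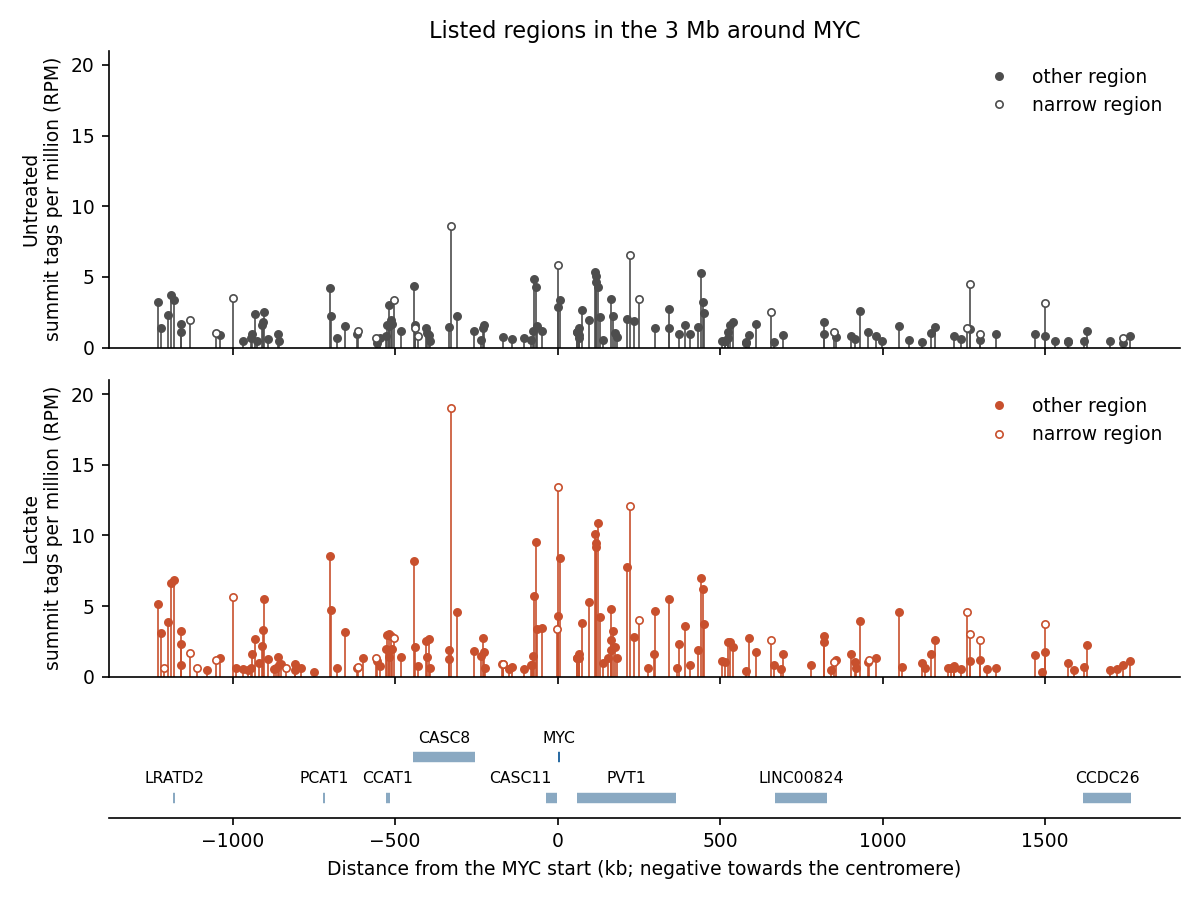
Summit tags in RPM (vertical axes, linear, one panel per library) of every listed region against its distance from the MYC start in kb; open circles are narrow regions and bars at the bottom mark genes, CCDC26 drawn as far as the window's edge. Stems are taller in the lactate panel with this scaling by total tags, whose median over all shared regions that are not narrow is 1.66 against 0.941 with summit-tag scaling; the tallest stem, 8.6 untreated and 19 lactate, is a narrow region in CASC8.

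MYC itself carried 3 separate stretches of accessibility: one over its start, one within the gene and one over its 3′ end. The gene lies at 127735434 to 127742951, 7518 bp, and is read from the lower coordinate. All 3 stretches were in both lists, and none had a relative ratio past 1.5 or under 0.667. No other region in either list came closer than 47.6 kb on the centromeric side or 50.9 kb on the telomeric side, except a narrow one in the lactate list alone. MYC therefore stood apart from the regions on either side of it.

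The promoter region, at 127735156 to 127736379, was 1 region in the untreated list and 2 in the lactate list, with 3 summits in each library. The first summit, just before the annotated start at −105 bp in untreated and −121 bp in lactate cells, had 42 and 66 tags, or 2.3 and 4.29 RPM. The second, at 395 and 452 bp, had 27 and 55 tags. The third, at 732 and 783 bp, had 52 and 61 tags. The untreated profile was thus highest at the third summit, inside the gene, and the lactate profile at the first, before the start. Their ratios, scaled by total tags, were 1.86 (1.25 to 2.81), 2.41 (1.5 to 3.98) and 1.39 (0.944 to 2.05) in that order. The intervals overlap, which does not settle whether the shape of the promoter changed, and that was not tested.

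Taken as the highest summit of each library, the MYC promoter had 52 untreated and 66 lactate tags, or 2.85 and 4.29 RPM. The ratio was 1.5 (1.03 to 2.21) with total tags and 0.853 (0.584 to 1.25) with summit-tag scaling, so its direction depends on the scaling. The relative ratio was 0.791 (0.542 to 1.16), an interval that holds 1. It sets the third summit of untreated cells against the first of lactate cells. With summits matched by position, the third had a relative ratio of 0.731 (0.497 to 1.08). The first had a ratio of 1.86, where regions of like summit tags had a median of 1.85. The second had 2.41, above the median ratio of every bin, so a value below 1 does not hold for every promoter summit. Of 15812 coding genes whose start is known from the promoter table, 9576 had a promoter region in both lists, 806 in the lactate list alone, 87 in the untreated list alone and 5303 in neither. Those in both had a median of 35 untreated and 54 lactate tags and a median relative ratio of 1.01, with quartiles of 0.831 and 1.23. The MYC promoter stood above the median promoter in tags in both libraries, and its relative ratio lay below the lower quartile with an interval that reaches into the middle of the distribution.

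The 3′ end of MYC, at 127742255 to 127743586, had more tags at its summit than the promoter in both libraries. Its main summit lay beyond the annotated end of the gene, by 215 bp in untreated and 223 bp in lactate cells, with 61 and 129 tags, or 3.34 and 8.38 RPM. The ratio was 2.51 (1.83 to 3.46) and the relative ratio 1.25 (0.915 to 1.72). A lower summit inside the gene, at 6991 and 6931 bp from the start, had 27 and 37 tags and a ratio of 1.62 (0.962 to 2.77). Among the 1829 coding genes with a region at the 3′ end in both lists the median relative ratio was 1, with quartiles of 0.829 and 1.22, so the value at MYC was just above the upper quartile while its interval held 1.

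The promoter and the 3′ end can be compared within a library, where the scaling of the libraries drops out. The main 3′ summit had 1.17 times the tags of the highest promoter summit in untreated cells and 1.95 times in lactate cells, and these proportions differed by a factor of 1.67 (1.01 to 2.75). That factor depended on the promoter summit used: it was 1.35 (0.796 to 2.26) against the first, 1.04 (0.571 to 1.86) against the second and 1.8 (1.08 to 2.99) against the third. This comparison was chosen after its values were seen, and the difference between the ends of MYC holds against counting error for the third summit but not for the others.

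Within the gene, a narrow region at 127737490 to 127737709 had the same borders in both lists and the highest summit of MYC. It held 107 untreated and 206 lactate tags, or 5.86 and 13.4 RPM, at 2164 and 2165 bp from the start. Its ratio was 2.28 (1.8 to 2.91) and its relative ratio 1.14 (0.897 to 1.45). A further narrow region, at 127734053 to 127734274, was in the lactate list alone, with 52 tags or 3.38 RPM at −1267 bp. It lay 86 bp from CASC11, a long noncoding RNA gene next to MYC that itself overlapped no region. It was the highest of the 46 regions of the lactate list alone, and being narrow it belongs to the class that was set apart above.

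**Figure D2:**
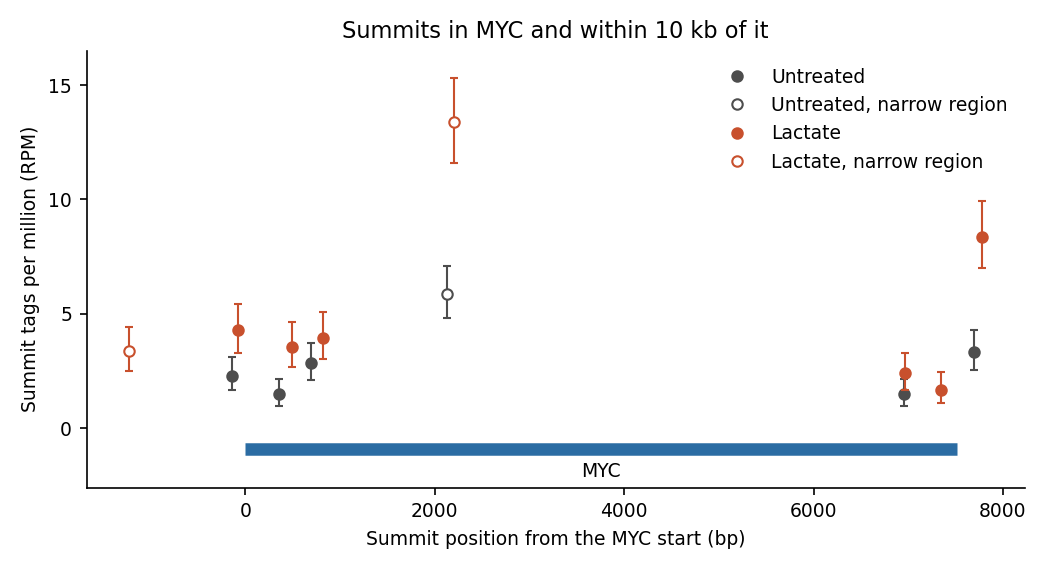
Summit tags in RPM (vertical axis, linear) of each summit in MYC and within 10 kb of it, against its position from the MYC start in bp, with exact 95% Poisson intervals; the libraries are drawn slightly apart, open circles are narrow regions and the bar is the gene. With scaling by total tags the narrow region within the gene is highest, at 5.86 untreated and 13.4 lactate, and the 3′ end reads 3.34 and 8.38; the promoter's ratio of 1.5 turns to 0.853 with summit-tag scaling.

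Accessibility over a wider span around MYC was read from the fold enrichments, since the authors' peak caller set each summit against the tags in the 10 kb around it and that number can be recovered. This measure was chosen once the data were known, and it includes the summits themselves. Around the first promoter summit the 10 kb held 584 untreated and 779 lactate tags, or 32 and 50.6 RPM. The ratio was 1.58 (1.42 to 1.76), where regions with a similar number of such tags had a median of 1.45, which gives a relative value of 1.09 (0.975 to 1.21). Around the main 3′ summit there were 386 and 501 tags, with a ratio of 1.54 (1.34 to 1.76) and a relative value of 1.12 (0.982 to 1.29). Around the lower 3′ summit, inside the gene, there were 524 and 750 tags, and the relative value was 1.17 (1.04 to 1.31), the one interval of the MYC promoter and 3′ summits that does not hold 1. These 10 kb spans overlap one another, so they are not separate measurements. Over all 51087 shared regions where the number could be recovered the median ratio of these 10 kb tags was 1.15, while that of the summits of the same regions was 1.74. In the window the corresponding medians, over 77 regions, were 1.17 and 1.85.

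By position, the regions fell into 5 parts. On the centromeric side, the part over 500 kb from MYC had 36 shared regions, 17 of the lactate list alone and 2 of the untreated list alone. Within 500 kb of MYC on that side the numbers were 23, 7 and 2. PVT1 had 22, 5 and 2, and the stretch beyond PVT1 had 47, 16 and 9. Regions of the lactate list alone were 31.5%, 23.3%, 18.5% and 25.4% of the lactate regions in the same order, against a background of 27.7%. A lactate region overlapped 94.7%, 92%, 91.3% and 84.2% of the untreated regions, where the genome gave 90.1%. Median relative ratios were 0.899, 0.943, 0.966 and 0.983 in that order. A relative ratio of at least 1.5 was found in 8.33% of the shared regions of the far centromeric part, 13% within 500 kb of MYC, 9.09% in PVT1 and 21.3% beyond it, beside the background of 10.7%. One of at most 0.667 was found in 25%, 13%, 9.09% and 25.5% in the same order, beside the background of 14.4%. At MYC itself there was none of either kind.

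**Figure D3:**
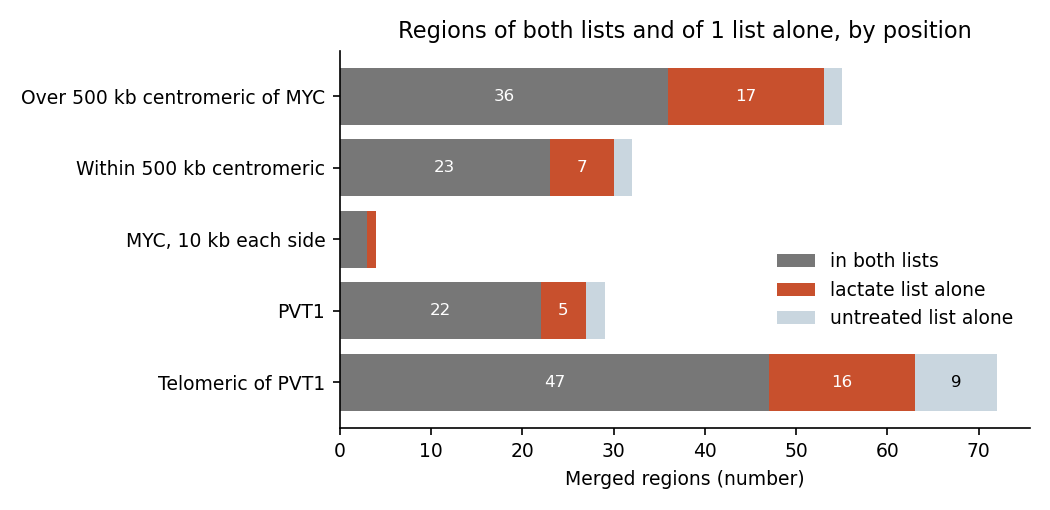
Number of merged regions (horizontal axis, from 0) in each part of the window, stacked as regions of both lists, of the lactate list alone and of the untreated list alone. Shared regions are the largest class in every part, and regions of the lactate list alone outnumber those of the untreated list alone in each. The same holds over the genome, with 33938 merged regions of the lactate list alone and 9765 of the untreated list alone.

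The far centromeric part holds the coding gene LRATD2, whose region at the upper-coordinate end, 126557386 to 126558943, had 61 untreated and 105 lactate tags and a relative ratio of 1.05 (0.758 to 1.46). A region 4509 bp from LRATD2, at 126546825 to 126547934, had 68 and 102 tags and a relative ratio of 0.914 (0.666 to 1.26). The region with the highest summit of this part, at 127035402 to 127036175 and −700 kb from the MYC start, had 77 and 132 tags and a relative ratio of 1.01 (0.76 to 1.36). By their highest summits, these 3 regions therefore sat close to what regions of their height did over the genome. A second summit of the LRATD2 region was lower, with 57 and 51 tags and a ratio of 1.06 (0.712 to 1.57). Regions of like summit tags had a median of 1.85. A further summit of that region had 19 and 26 tags and a ratio of 1.62 (0.863 to 3.1), where such a median was 1.71. PCAT1, a long noncoding RNA gene of this part, overlapped no region.

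Low relative ratios in this part included the gene of CCAT1, a long noncoding RNA first described in colon cancer. Its region at 127215005 to 127215614 had 55 untreated and 46 lactate tags, or 3.01 and 2.99 RPM, and a relative ratio of 0.535 (0.353 to 0.806). One summit of this region had 30 and 46 tags, with a ratio of 1.82 (1.12 to 2.98). The other had 55 and 37 tags, with a ratio of 0.797 (0.511 to 1.23). These intervals overlap, which does not settle whether the summits differ, and that was not tested. The neighbouring region at 127215835 to 127216533 had 28 and 22 tags and a relative ratio of 0.542 (0.295 to 0.982). Around the first of these regions the 10 kb held 322 untreated and 308 lactate tags, a ratio of 1.13 (0.966 to 1.33). Regions with a similar number of such tags had a median of 1.28, which gives a relative value of 0.889 (0.758 to 1.04). Around the highest summit of the second there were 260 and 224 tags and a relative value of 0.817 (0.68 to 0.981), an interval below 1. These 10 kb spans overlap and include the summits themselves, so they are not separate measurements. CCAT1 also held a region of the lactate list alone, with 30 tags at 127208146 to 127208455, and a region of the untreated list alone lay 656 bp from it, with 15 tags at 127206168 to 127206726. The third shared region of CCAT1, at 127210122 to 127210742, had 29 and 45 tags and a relative ratio of 1.02 (0.628 to 1.69), so the low values did not extend to all of the gene.

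Of the other regions of the far centromeric part chosen for extreme relative ratios, one within the long noncoding RNA genes LOC105375751 and LOC105375753 (126804958 to 126805714) had 44 and 41 tags and a relative ratio of 0.604 (0.385 to 0.946). Another within LOC105375751 (126579425 to 126580340) had 20 and 50 tags and a relative ratio of 1.65 (0.963 to 2.92), an interval that holds 1.

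Closer to MYC, the overlapping long noncoding RNA genes CASC21 and CASC8 held a wide region at 127294062 to 127295378 with 79 untreated and 126 lactate tags and a relative ratio of 0.943 (0.706 to 1.27). CASC8 overlapped 12 regions of each list. Among them was the highest summit of the whole window, the narrow region at 127407757 to 127407979, with 157 and 292 tags, or 8.6 and 19 RPM, and a relative ratio of 1.1 (0.903 to 1.34). It lay 5468 bp from POU5F1B, a coding retrogene related to the pluripotency factor gene POU5F1, which overlapped no region. A region in CASC21 and CASC8 at 127340069 to 127340421 had 16 and 41 tags and a relative ratio of 1.73 (0.952 to 3.31). Of the 5 highest regions of the untreated list alone, 2 were also here, both narrow, with 25 tags at 127295530 to 127295747 and 15 tags at 127303929 to 127304147.

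Nearer to MYC on the centromeric side lay a pair of strong regions, of which the first is named for its low relative ratio and the second for its height. The region at 127661291 to 127662005, at −73.8 kb, had 89 untreated and 88 lactate tags, or 4.88 and 5.71 RPM, and a relative ratio of 0.585 (0.43 to 0.794). The region at 127668049 to 127669226, at −66.8 kb and within LOC105375754, had 78 and 147 tags, or 4.27 and 9.54 RPM, and a relative ratio of 1.11 (0.841 to 1.49). In untreated cells the first was the higher of these 2 neighbours, and in lactate cells the second was; since the first was chosen for its low value, this is a description. Both are distal, the former 1275 bp outside LOC105375754. The 10 kb around the former held 265 and 243 tags, with a ratio of 1.09 (0.909 to 1.3) where regions of similar tags had 1.25, and around the latter 447 and 569, with a ratio of 1.51 (1.33 to 1.71) where such regions had 1.45. These counts include the summits themselves.

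PVT1, the long noncoding RNA gene on the telomeric side that hosts several microRNA genes, was the part of the window with the most regions per Mb apart from MYC itself: 75 untreated and 88 lactate. Its shared regions had a median of 38 untreated and 63.5 lactate tags, against 25 and 33 in the whole window. Its lower-coordinate end, nearest to MYC, was weak, with 20 and 21 tags at 127793840 to 127794643 and a relative ratio of 0.744. The strong regions lay within the gene, in a cluster that begins 116 kb from the MYC start. There, the region at 127851434 to 127851823 had 97 and 156 tags, or 5.32 and 10.1 RPM, and a relative ratio of 0.951 (0.733 to 1.24). The next 2 regions of the cluster, from 127851970 and from 127853863, had 92 and 146 tags and 85 and 141 tags, with relative ratios of 0.938 and 0.981. The region at 127859501 to 127860364 had 78 and 168 tags and a relative ratio of 1.27 (0.968 to 1.69). The cluster was thus high in both libraries, and its relative ratios stayed near 1. The 10 kb around its first summit held 844 untreated and 1127 lactate tags, more than around the MYC promoter.

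PVT1 also held the largest ratio of all shared regions of the window. The region at 127949047 to 127950056, 214 kb from the MYC start and 324 bp from LINC02912, had 37 untreated and 119 lactate tags, or 2.03 and 7.73 RPM. Its ratio was 3.81 (2.62 to 5.67) and its relative ratio 1.96 (1.34 to 2.92). The 10 kb around it held 214 and 322 tags, a ratio of 1.78 (1.5 to 2.13), where regions with a similar number of such tags had a median of 1.25. A region at 128035018 to 128035484, 300 kb from the MYC start, had 25 and 72 tags and a relative ratio of 1.84 (1.15 to 3.03), and its 10 kb ratio was 1.4 (1.14 to 1.71), where regions with a similar number of such tags had 1.21. Both 10 kb counts include the summits for which the regions were chosen, so they are not separate measurements. These regions were the only ones of PVT1 with a relative ratio of at least 1.5.

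Between them lay a narrow region at 127956964 to 127957183, with 120 and 187 tags and a relative ratio of 0.921 (0.729 to 1.17). Of the 5 highest regions of the lactate list alone, 3 were in PVT1, with 40 tags at 127900592 to 127900820, 29 at 127898452 to 127898681 and 25 at 128032841 to 128033311. Of the 5 highest of the untreated list alone, 2 were in PVT1, with 25 tags at 128077722 to 128077934 and 16 at 127802654 to 127802994. Regions of either list alone were therefore found within the same gene.

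**Figure D4:**
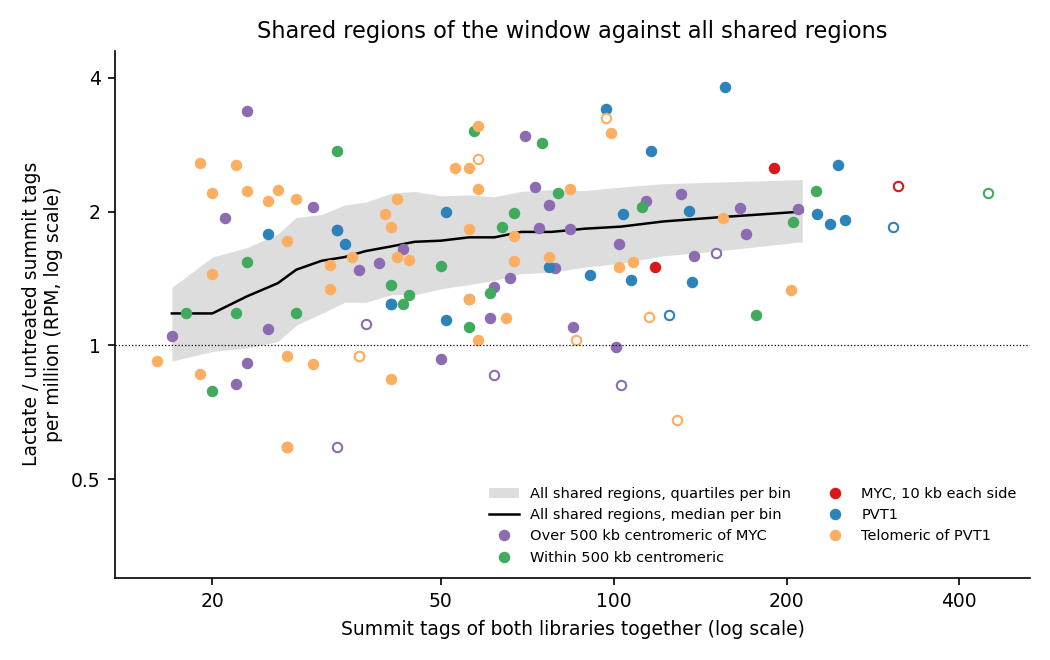
Ratio of lactate to untreated summit tags in RPM (vertical axis, log scale) against the summit tags of both libraries together (horizontal axis, log scale) for the 131 shared regions of the window, coloured by position, open where narrow; the line and band are the median and quartiles of all shared regions per bin. With scaling by total tags the window's median is 1.59, which turns to 0.9 with summit-tag scaling; the highest point is a PVT1 region at 3.81.

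Beyond PVT1 the strongest shared region lay in LOC124902020, a long noncoding RNA gene, at 128176469 to 128177480. It had 96 untreated and 108 lactate tags, or 5.26 and 7.01 RPM, and a relative ratio of 0.665 (0.501 to 0.885). This value sets different summits of the libraries against each other. The summits matched by position had 89 and 108 tags and a ratio of 1.44 (1.08 to 1.93), where regions of like summit tags had a median of 2. The neighbour of this region in the same gene, at 128183125 to 128183637, had 59 and 96 tags and a relative ratio of 0.991 (0.709 to 1.4). Farther out, intergenic regions with extreme values were low in tags: 16 and 42 at 128322722 to 128323198, with a relative ratio of 1.78 (0.978 to 3.38), and 31 and 27 at 128343589 to 128344340, with a relative ratio of 0.589 (0.338 to 1.02). Both intervals hold 1. An intergenic region named after its values were seen, at 128787554 to 128788055, had 28 and 71 tags and a relative ratio of 1.62 (1.03 to 2.61). A narrow one so named, at 128997352 to 128997570, had 26 and 71 tags and a relative ratio of 1.75 (1.1 to 2.85).

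One narrow region beyond PVT1, at 129005644 to 129005864, had fewer tags in the lactate library under either scaling, with 82 untreated and 47 lactate tags. Its ratio was 0.679 (0.464 to 0.984) and its relative ratio 0.357 (0.244 to 0.518). The 10 kb around it held 150 untreated and 97 lactate tags, which include those of the summit itself. That ratio was 0.766 (0.587 to 0.996), where regions of similar tags had 1.09. A neighbouring region that is not narrow, at 129005152 to 129005460, had 24 and 17 tags and a relative ratio of 0.502 (0.253 to 0.974). The narrow region at 127231818 to 127232036, on the centromeric side, had 61 and 42 tags and 0.44 (0.29 to 0.663). Of the 16 narrow shared regions of the window, 8 had a relative ratio of at most 0.667 and 2 one of at least 1.5. What lies behind the low values was not tested. CCDC26, a long noncoding RNA gene at the telomeric end whose surroundings hold a known blood enhancer cluster of MYC, overlapped 6 regions of each list within the window. The window ends at 129500000 and the gene runs on to 129680239, so the rest of the gene was not counted. The longest stretches without any region were also on this side, the longest of them 116 kb, between 1350 and 1470 kb from the MYC start.

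Outside the window, the promoters of genes that act with MYC or on it were read in the same way, from a list of 28. A promoter region was found in both lists for 19, in the lactate list alone for MLXIPL, which encodes a MAX-like network partner and had 15 tags, and in neither for MYCN, MGA and HUWE1. The remaining 5 were not analysed here. The 19 had a median relative ratio of 1.19, between 0.758 and 2.18, where all promoters gave 1.01. Of these 19, 5 had a relative ratio of at least 1.5, or 26.3% against a background of 9.44%, and none had one of at most 0.667, against a background of 7.09%. With 11 above 1 and 8 below, the list was spread to both sides.

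USP28, a deubiquitinase that stabilises MYC, had 9 untreated and 27 lactate tags and the highest value, 2.18 (0.996 to 5.27). MXI1, a MAX partner that opposes MYC, had 21 and 58 tags and 1.82 (1.09 to 3.16). SKP2, an F-box protein that marks MYC for degradation, had 42 and 112 tags and 1.62 (1.13 to 2.37). TCF7L2, a Wnt pathway factor that acts on MYC enhancers, had 20 and 45 tags and 1.52 (0.879 to 2.72). The fifth call, named after its value was seen, was MXD1, a further antagonist that pairs with MAX, with 100 and 255 tags and 1.51 (1.19 to 1.92). Related members of the list were not called, among them the MAX partners MXD3 at 1.32 and MXD4 at 1.19. At the other end, the acetyltransferase gene KAT5 had 131 and 168 tags and 0.758 (0.6 to 0.96). FBXW7, which encodes an F-box protein that targets MYC, had a relative ratio of 0.81, the repressor gene MNT 0.901 and the kinase gene CDK9 0.907. MAX itself, the obligate partner, had 45 and 89 tags and 1.23 (0.852 to 1.81).

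A list of 24 textbook MYC targets was closer to the background. A promoter region was in both lists for 19 and in the lactate list alone for TERT, the telomerase gene, with 9 tags, while NOP58, CCND2, SHMT2 and GADD45A were not analysed here. The median relative ratio was 1.05, between 0.563 and 1.7. RRN3, a factor of RNA polymerase I, had 26 and 68 tags and 1.7 (1.06 to 2.78). SRM, the spermidine synthase gene, had 27 and 67 tags and 1.61 (1.01 to 2.62). The nucleolar protein gene NOP56 had 21 and 50 tags and 1.57 (0.926 to 2.75). These 3 calls were 15.8% of the 19, against the background of 9.44%. ODC1 followed at 1.49 (0.982 to 2.31) and CDKN1A at 1.49 (1.06 to 2.11). The list was not split by whether MYC raises or lowers a target, so these genes are not read as 1 group. The single low call was LDHA, the lactate dehydrogenase A gene, with 62 and 56 tags and 0.563 (0.385 to 0.821), or 5.26% of the 19 against the background of 7.09%. CDK4 had a relative ratio of 0.72, CDKN2B 0.8 and CAD 0.833. Among other ribosome production genes of the list, DKC1 had 1.27 (0.775 to 2.12), NPM1 1.07, PPAN 1.04, FBL 1, NCL 0.911 and POLR1B 0.858.

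**Figure D5:**
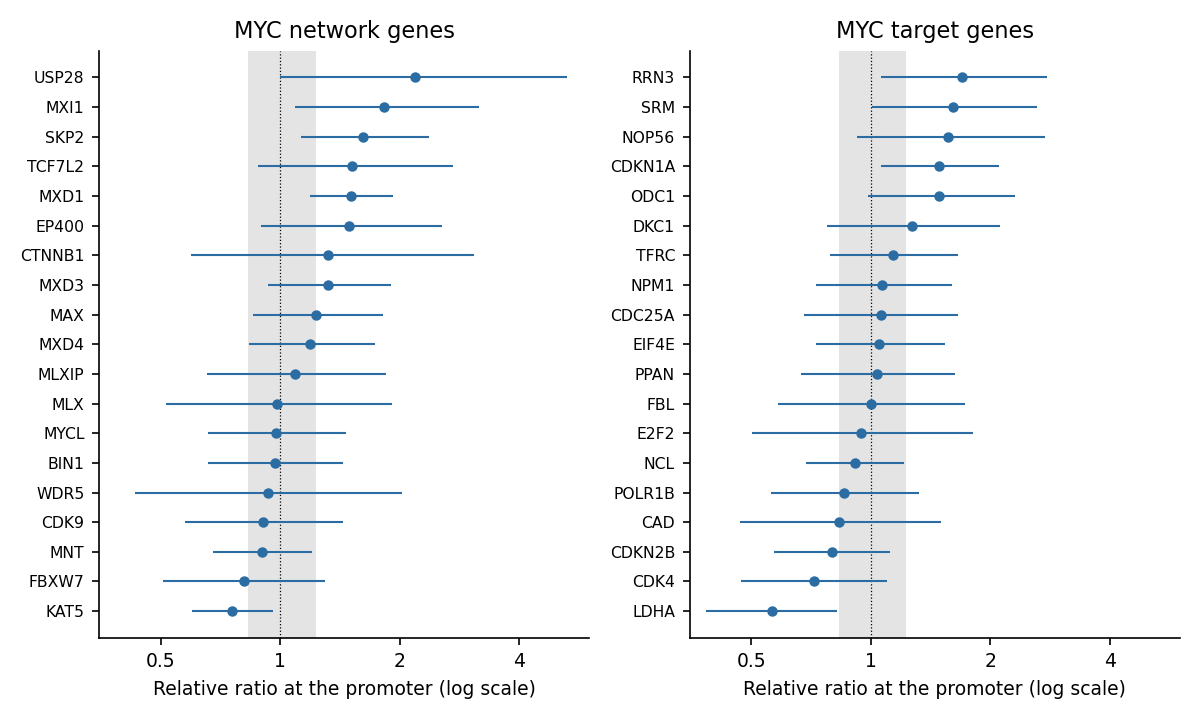
Relative ratio at the promoter (horizontal axes, log scale) of the 19 MYC network genes and the 19 MYC target genes with a region in both lists, with exact 95% intervals; the grey band spans the quartiles of all promoters, 0.831 to 1.23. Network genes reach from 0.758 (KAT5) to 2.18 (USP28) and target genes from 0.563 (LDHA) to 1.7 (RRN3), and many intervals cross 1.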

How the data were processed

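Per the submitters' processing notes, reads were handled with fastp 0.20.0, BWA 0.7.12 and MACS2 2.1.0 on hg38. Per the file headers the peak caller was MACS 2.2.7.1, run on each library alone without a control, at a q-value threshold of 0.05, with a shift of 100 bp, an extension of 200 bp and summit calling. The deposited pileup is a signal, the number of extended tags covering a summit, with no scaling for depth. The deposited fold enrichment is a ratio of pileup to local background, with 1 added to each. Start, end, width and summit are deposited positions in bp, a unit of length.

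A region with several summits counted once, with its highest pileup. Regions overlapping by at least 1 bp were shared, and overlap counts equalled those of bedtools 2.31.1. The 10 kb tags are the local background times its range over the extension. They were whole within 0.05 for 100% of summits above the floor, which is 58.9 tags for untreated cells and 49.7 for lactate. Genes and starts came from RefSeq tables of GRCh38.p14, the build of hg38. A promoter is 1 kb to each side of a start, narrow regions left out. The ratio code (Python 3.11.15, numpy 2.4.6, scipy 1.17.1, pandas 2.3.3) was tested on simulated data.

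Members and lists were chosen with earlier results of these data known. Regions named are those at the ends of MYC, the 3 with the highest summits per block, the 5 highest and lowest relative ratios among regions with at least 50 tags that are not narrow, and the 5 highest of each list alone. From the gene lists the 4 highest and lowest and members in 1 list alone are named. Alternatives covered narrow regions, thresholds, overlap, window, scaling, summit matching and bins.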

Additional observations from a re-analysis of the deposited data

How the results depend on the processing

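Of 37 alternative values over 9 results, 30 stayed close to the reported value, 5 moved and 2 reversed. With summit-tag scaling the median ratio of the shared window regions became 0.9 and the MYC promoter ratio 0.853, both on the other side of 1, and the 3′ end ratio became 1.42 (1.04 to 1.96). A window of 500 kb on each side of MYC held 61 untreated and 71 lactate regions, by its own smaller size. With the lactate list cut to the length of the untreated list by fold enrichment, the window held 141 lactate regions, fewer than the 148 untreated ones. The overlapped shares were then 79.7% of untreated and 83% of lactate regions. The relative ratios at the ends of MYC kept their side of 1 with a window of 2 kb, 10 bins, or narrow regions kept in the bins. They also did so with matched summits, where only the matched pair with the most tags was used at each end. At the promoter this pair was the third summit, with a relative ratio of 0.731 (0.497 to 1.08), and the other promoter summits were not covered. No paired analysis was possible because there is 1 library of each kind. Depth limits the weaker regions most: at a summit of 16 untreated and 41 lactate tags the relative ratio of 1.73 has an interval of 0.952 to 3.31.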
